A study of Mus musculus with 4 samples.

Results

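The genes described here are 6 transcripts that mark whether a T cell recirculates or is held in tissue: S1pr1, S1pr4, Ccr7, Il7r, Klf2 and Cd69. They were chosen by symbol, and each symbol matched 1 of the 32285 genes in the count files. CD3+CD4+ T cells had been sorted from spleens of C57BL6/J mice and kept for 6 hours on beads carrying antibodies to CD3 and CD28, which stand in for antigen and costimulation. The 4 single-cell libraries were 1 female and 1 male library labelled Irf5-/- (called labelled knockout below) and 1 female and 1 male library labelled wild type, so all cells were stimulated and no resting group was measured. The labels give neither the age of the mice nor the number of mice in a library, so p-values measure only the spread between these libraries, which may be technical.

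Sphingosine 1-phosphate is high in blood and lymph and low inside lymphoid tissue, and T cells leave tissue along that gradient through the receptor encoded by S1pr1. S1pr4 encodes a second lymphocyte receptor for the same lipid. Ccr7 encodes the receptor for CCL19 and CCL21 that brings T cells into lymphoid tissue, and Il7r encodes the IL-7 receptor alpha chain, which keeps resting T cells alive. Klf2 encodes a transcription factor of quiescent T cells that binds the S1pr1 promoter. Cd69 encodes an early activation protein that binds the S1PR1 protein and drives it off the cell surface. Transcripts of Myc and Irf4, transcription factors induced through the T cell receptor, served here as a measure of activation in each cell.

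Where values are listed per library, the order is female labelled knockout, female labelled wild type, male labelled knockout, male labelled wild type. Cells with at least 2000 UMIs (unique molecular identifiers, counted transcripts), at least 500 genes and at most 10% mitochondrial UMIs numbered 6178, 1814, 6543 and 4565, or 19100 in all. The libraries held 28841161 to 55850754 UMIs, and the medians per kept cell were 5104.5, 8416, 6741 and 9661 UMIs. The female library labelled wild type stood apart, with 36.2% of its UMIs in droplets of under 200 UMIs, against 8.62% to 14.7% in the others. Pairs of libraries shared 2 to 14 kept barcodes. Cd3e was at 162 to 200.1 CPM (UMIs of a gene per 1000000 UMIs) and Cd4 at 44.4 to 53.9 CPM. Of the CD8 T cell markers, Cd8a was at 0.0430 to 0.312 CPM and Cd8b1 at 7.55 to 9.97 CPM. Summed B cell markers (8 of 10 detected in every library) were at 124 to 225 CPM in the libraries labelled knockout and at 53.8 to 61.9 CPM in those labelled wild type. Summed erythroid markers (12 of 12) were at 32.1 to 33.1 CPM and at 50.8 to 1468 CPM in the same order.

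Irf5 itself, the gene named by the genotype, went against the labels. It stood at 8.36, 0.940, 8.89 and 1.23 CPM, so both libraries labelled knockout were above both labelled wild type (log2 difference 2.94 ± 0.18 SE, edgeR adjusted p = 6.0e-07). The labels do not say which part of the gene was removed, and 3′ counts read only the end of a transcript. Whether the labels are exchanged cannot be told from these counts; if they were, every direction between labels would turn. The groups are therefore named by their labels throughout, and every direction between them is a direction between labels.

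The 6 genes lie on 6 chromosomes of GRCm38 in the GENCODE annotation. S1pr1 (ENSMUSG00000045092) is at chr3:115710433-115715072, S1pr4 (ENSMUSG00000044199) at chr10:81497747-81500132, Ccr7 (ENSMUSG00000037944) at chr11:99144196-99155077 and Il7r (ENSMUSG00000003882) at chr15:9505788-9530176, all on the minus strand. Klf2 (ENSMUSG00000055148) is at chr8:72319033-72321656 on the plus strand, and Cd69 (ENSMUSG00000030156) is at chr6:129267325-129275436 on the minus strand. RefSeq promoter windows (250 bases before to 50 after a start, GRCm38.p6) were matched for Klf2, S1pr4 and Il7r. The bases upstream of the annotated start are shown for Klf2 and S1pr4, the regulator and a receptor that fell together with activation in the results that follow. Capitals mark the match to a MEF2 site (CTA, any 4 bases, then TAG, on either strand) in Klf2 and the match to a KLF core (CACCC or its complement GGGTG) in S1pr4.
Klf2, chr8:72318812-72319032, plus strand: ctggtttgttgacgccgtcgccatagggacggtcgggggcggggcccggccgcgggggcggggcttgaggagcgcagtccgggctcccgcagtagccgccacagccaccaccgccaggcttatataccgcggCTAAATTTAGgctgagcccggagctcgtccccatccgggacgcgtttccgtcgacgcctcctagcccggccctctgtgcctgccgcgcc
S1pr4, chr10:81500138-81500387, minus strand: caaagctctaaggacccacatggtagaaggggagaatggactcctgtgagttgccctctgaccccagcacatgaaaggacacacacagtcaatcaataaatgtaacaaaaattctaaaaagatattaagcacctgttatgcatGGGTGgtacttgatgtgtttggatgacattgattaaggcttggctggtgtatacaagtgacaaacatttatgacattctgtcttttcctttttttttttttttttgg
The MEF2 match begins at position -118 from the RefSeq start of Klf2, and 3.69% of the 32851 promoter windows hold such a match. The KLF core begins at position -107 in S1pr4, and 57.5% of windows hold one. A further KLF core in Klf2, at position -19, lies past the printed stretch. The Il7r window held an ETS core (ACTTCC) at position -49, found in 23.8% of windows. FOXO (GTAAACA), AP-1 (TGANTCA) and E-box (CACGTG) letters, held by 3.65%, 7.81% and 7.15% of windows, were in none of the 3 windows. A match is a description of letters, not evidence of a bound site.

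The comparison along activation asked how the egress and homing transcripts stood in cells with more Myc and Irf4. Each cell was thinned at random to 2000 UMIs and classed by its summed Myc and Irf4 UMIs as 0, 1, 2 to 3, or 4 or more; levels were then read from all UMIs of each class. The class with 0 UMIs (the zero class) held 33.0%, 32.5%, 34.9% and 34.0% of cells, and the class with 4 or more (the high class) held 19.4%, 19.2%, 16.9% and 16.7%. These classes are ranges of a score, not cell types: 11.8% of all cells had 3 UMIs, just under the high class, and 7.88% had 4, just inside it. High-class cells also held more RNA, with medians of 5369.5, 8938, 7040 and 10042.5 UMIs against 3692, 6283, 4935 and 6894 in the zero class.

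S1pr1, S1pr4, Il7r and Klf2 were all far lower in the high class than in the zero class, Cd69 was far higher, and Ccr7 was nearly level. In edgeR's quasi-likelihood test with library as a block, 75.8% of the 11104 genes tested differed between these classes at an adjusted p under 0.05. The 4 members that fell compare with 39.7% of genes called lower, and the 2 called higher, Cd69 and Ccr7, with 36.1%; the Ccr7 call rests on the scaling. Size separates the members more than the call does: 8.96% of genes were called with a log2 difference under -2, and S1pr1, Il7r, S1pr4 and Klf2 were among them. Ranked from the lowest difference, S1pr1 was number 77, Il7r 140, S1pr4 543 and Klf2 656 of 11104 genes, and Cd69 was 11085.

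The egress receptor S1pr1 stood at 144, 150.4, 157 and 147 CPM in the zero class and at 5.08, 3.48, 5.50 and 3.47 CPM in the high class. All 4 libraries moved the same way, and the classes did not overlap (log2 difference -4.88 ± 0.09 SE, edgeR adjusted p = 8.8e-15). The high class rested on 35, 11, 46 and 28 UMIs of S1pr1. Most of the loss was already present at 1 Myc or Irf4 UMI, where S1pr1 averaged 30.3 ± 3.9 CPM (SD, n = 4), or 20.3% of its zero-class level, before 8.93 ± 1.8 CPM at 2 to 3 UMIs. After thinning, an S1pr1 UMI was found in 27.2% ± 0.89 of zero-class cells and in 0.629% ± 0.38 of high-class cells (SD, n = 4). Without thinning these shares were 44.4% and 2.80%. The thinned high-class share is at or below the share in erythroid-gated cells, which should lack it (1 of 43 cells, 2.33%, exact 95% interval 0.0589% to 12.3%; their median was 16007 UMIs), and is read as background. Droplets under 200 UMIs held 31.3 to 43.9 CPM of S1pr1, so the RNA outside cells was richer in S1pr1 than the high-class cells were. With cells scored as likely doublets removed, the S1pr1 difference was -5.51.

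S1pr4, the second receptor for the lipid, also fell. It stood at 37.6, 39.1, 39.9 and 41.4 CPM in the zero class and at 5.52, 5.38, 6.22 and 5.57 CPM in the high class (log2 difference -2.62 ± 0.10, edgeR adjusted p = 4.6e-12). The library values lay close together within each class. S1pr4 kept 14.4% ± 0.96 (SD, n = 4) of its zero-class level, against 2.92% ± 0.68 for S1pr1. Its thinned share of high-class cells with a UMI, 1.16% ± 0.28, compares with 1 of 43 erythroid-gated cells. Those cells held 29.3 CPM of S1pr4 (23 UMIs), above the high class, so they give no clean background for this gene.

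Il7r, the survival receptor, was at 268, 278, 334 and 503 CPM in the zero class and at 18.6, 10.1, 20.9 and 21.0 CPM in the high class (log2 difference -4.07 ± 0.09, edgeR adjusted p = 3.9e-14). The male library labelled wild type had the highest zero-class level of the 4. Its fall was all but complete at 2 to 3 UMIs of Myc and Irf4, with 19.8 ± 1.3 CPM there and 17.7 ± 5.2 CPM in the high class (SD, n = 4), values that overlap. An Il7r UMI was left in 2.85% ± 0.95 of thinned high-class cells. None of the 43 erythroid-gated cells had one, which allows a share of up to 8.22% (exact 95% limit). Without thinning those cells also held 0 UMIs of Il7r, while droplets under 200 UMIs held 52.6 to 93.7 CPM.

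Klf2, the quiescence regulator, was at 493, 390.4, 536 and 533 CPM in the zero class and at 96.1, 51.9, 101 and 70.1 CPM in the high class (log2 difference -2.44 ± 0.08, edgeR adjusted p = 9.0e-13). It went down stepwise over the 4 classes, with means of 488, 177, 116 and 79.8 CPM. Klf2 was still found in 12.4% ± 3.2 (SD, n = 4) of thinned high-class cells and in 26.1% without thinning. This share was above those of S1pr1, S1pr4 and Il7r, but Klf2 began at 54.7% of thinned zero-class cells and S1pr4 at 8.78%. By level, Klf2 kept 16.2% ± 3.5 of its zero-class CPM (SD, n = 4), near the 14.4% ± 0.96 of S1pr4. Of the erythroid-gated cells 1 of 43 had a Klf2 UMI, with an upper limit of 12.3%, and droplets under 200 UMIs held 167 to 197 CPM. The gated cells held 7.64 CPM of Klf2 (6 UMIs), below the high class in every library, whereas the droplets were above it.

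Cd69 moved the other way, from 521, 546, 601 and 634 CPM in the zero class to 2287, 2576, 2425 and 2470 CPM in the high class (log2 difference 2.24 ± 0.04, edgeR adjusted p = 7.7e-15). All 4 libraries rose by similar amounts. Cd69 was already found in 34.5% ± 1.4 of thinned zero-class cells and was found in 90.6% ± 1.4 in the high class (SD, n = 4), or 49.9% and 98.4% without thinning. Erythroid-gated cells had a Cd69 UMI in 10 of 43 cells (23.3%, exact interval 11.8% to 38.6%). The zero-class share lies within that interval and the high-class share above it. Those cells held 102 UMIs of Cd69 but 17 of Irf4. In droplets under 200 UMIs the levels were closer, at 672 to 854 CPM of Cd69 and 541 to 626 CPM of Irf4. The gated cells therefore give no clean background for Cd69. By level, they held 129.8 CPM of Cd69, below the zero class in every library. The droplets held more Cd69 than the zero class and less than the high class in every library.

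Ccr7, the homing receptor, had no steady direction along Myc and Irf4. Its levels were 354, 306, 267 and 299.8 CPM in the zero class and 333, 299.5, 262 and 283 CPM in the high class, so within each library the CPM was slightly lower in the high class (log2 ratios -0.089, -0.030, -0.029 and -0.081). It was highest in between, at 373 ± 45 CPM at 1 UMI and 352 ± 46 CPM at 2 to 3 (SD, n = 4), and each library had that shape. The fitted difference was 0.10 ± 0.03 (edgeR adjusted p = 0.012) with TMM scaling and -0.06 (adjusted p = 0.13) without it, a change of scale that moved the median of all genes from -0.05 to -0.21. The call was also lost without the filter on low counts (0.08, adjusted p = 0.098), in CD4 T-like cells alone (0.03, adjusted p = 0.40), and without the female library labelled knockout (0.08), the female library labelled wild type (0.09) or the male library labelled knockout (0.07). In raw UMIs per cell, not scaled to the total, the log2 ratio of Ccr7 was 0.29. The direction turned with the high class at 6 or more UMIs (-0.29, edgeR adjusted p = 0.0016) and with classes from Cd69 (-0.47, edgeR adjusted p = 1.0e-07). Cells with 4 or more Cd69 UMIs kept 63.3% ± 4.8 (SD, n = 4) of the Ccr7 level of cells with none.

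**Figure D1:**
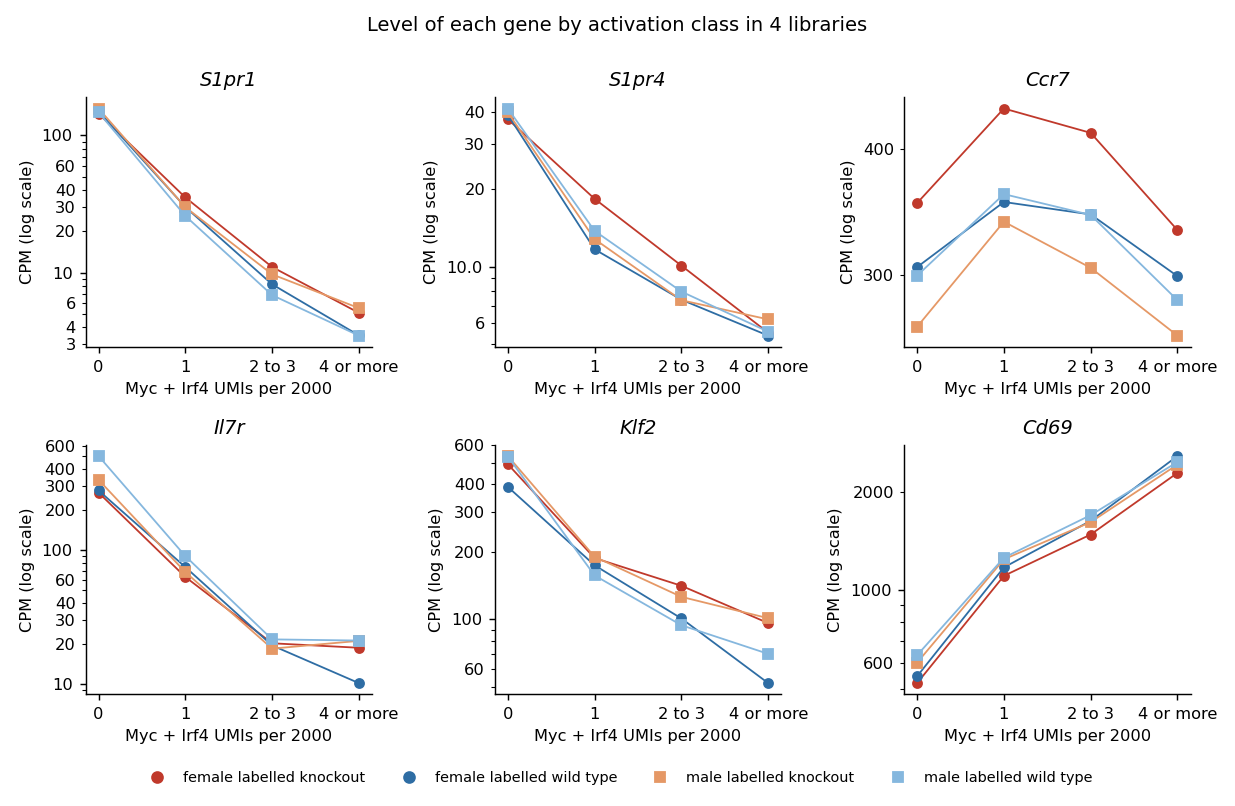
Level of each gene in CPM (vertical axis, log scale, different ranges) by the number of Myc and Irf4 UMIs in a cell thinned to 2000 UMIs (horizontal axis), with 1 line per library. S1pr1, S1pr4, Il7r and Klf2 go down from the zero class to the class with 2 to 3 UMIs in all 4 libraries, Cd69 goes up, and Ccr7 peaks at 1 UMI.

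Splitting the score showed that Ccr7 stood differently with each of its 2 genes. In cells with 2 or more Irf4 UMIs and no Myc UMI, Ccr7 was at 469, 400.3, 350.4 and 418 CPM, above its level in cells with neither in every library. In cells with 2 or more Myc UMIs and no Irf4 UMI it was at 205, 223, 175 and 191 CPM, below that level in every library. Cells with 2 or more of both averaged 237 ± 52 CPM (SD, n = 4). When classes were made from Irf4 alone the fitted Ccr7 difference was 0.41, and from Myc alone it was -0.56. The other members kept 1 direction under both: S1pr1 was at -3.85 with Irf4 alone and -3.87 with Myc alone, Klf2 at -1.71 and -2.09, and Cd69 at 1.18 and 1.54.

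**Figure D2:**
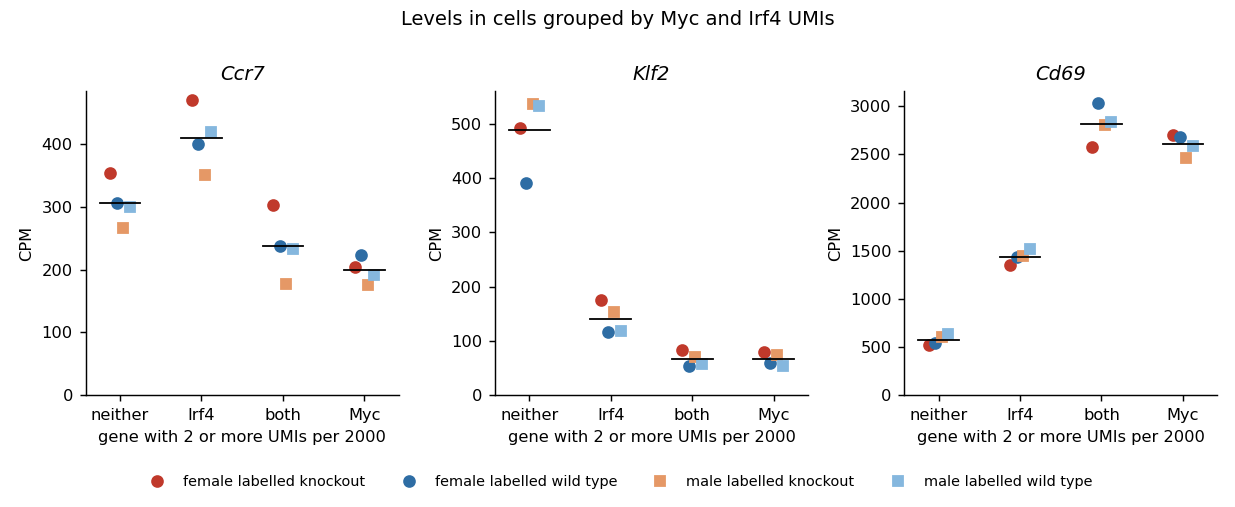
Ccr7, Klf2 and Cd69 in CPM (vertical axes, from 0) in cells grouped by which of Myc and Irf4 had 2 or more UMIs after thinning; neither means 0 UMIs of both, and the single groups have 0 of the other gene. Points are libraries and lines their means; Ccr7 is highest with Irf4 alone (mean 410 CPM) and lowest with Myc alone (mean 199 CPM), while Klf2 is lower in all 3 groups than in cells with neither.

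Cd69 carried further differences inside the zero class. After thinning, 4254 cells with no Myc or Irf4 UMI had no Cd69 UMI and 2210 had 1 or more. Of the latter, 583 had 4 or more. Over all their UMIs, zero-class cells still averaged 72.3 ± 11 CPM of Myc and 215 ± 22 CPM of Irf4 (SD, n = 4). Whether the Cd69 groups differ in this remaining Myc and Irf4 was not tested. S1pr1 averaged 212 ± 12, 59.3 ± 8.8 and 14.3 ± 5.6 CPM in these groups (SD, n = 4). Klf2 averaged 646 ± 97, 258 ± 46 and 128 ± 37 CPM, and Il7r 477 ± 160, 157 ± 51 and 57.6 ± 22 CPM. In all 4 libraries the cells with Cd69 were below those without it for these 3 genes, with ranges that did not overlap. Ccr7 was again different, at 294 ± 36, 326 ± 41 and 267 ± 30 CPM. Within the high class, by contrast, Ccr7 separated by Cd69, at 522 ± 59 CPM in 324 cells without a Cd69 UMI and 210 ± 20 CPM in 1973 cells with 4 or more (SD, n = 4). S1pr1 there was at 5.31 ± 3.4 and 3.67 ± 1.9 CPM, which overlap near the background.

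S1pr1 and Klf2 were also found together in single cells. Within the zero class, 38.2% ± 1.1 of cells with a Klf2 UMI had an S1pr1 UMI, against 13.9% ± 2.0 of cells without (SD, n = 4, thinned cells). The same split for Il7r was 47.4% ± 13 against 19.1% ± 2.2, and for S1pr4 12.3% ± 1.2 against 4.61% ± 0.77. Cd69 ran the other way, at 21.7% ± 0.79 of cells with Klf2 and 50.1% ± 3.6 of cells without. Ccr7 was found in 32.9% ± 2.5 and 31.6% ± 4.7, ranges that overlap. In more activated cells Ccr7 did separate by Klf2, at 50.5% ± 6.1 with and 33.6% ± 2.9 without at 2 to 3 Myc and Irf4 UMIs, and at 42.2% ± 4.8 and 28.1% ± 3.6 in the high class, with no overlap between libraries in either. Across all kept cells of a library, Pearson's r of the thinned values was 0.30 to 0.38 for S1pr1 with Klf2 and -0.22 to -0.20 for S1pr1 with Cd69, over 1814 to 6543 cells that share a library. Cells with no UMI of S1pr1, S1pr4, Il7r and Klf2 made up 31.5%, 37.2%, 29.4% and 31.0% of the zero class and 82.1%, 88.3%, 80.2% and 85.3% of the high class.

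Clusters give a second view in which the members, Myc and Irf4 were left out of the clustering. The members were examined in the 18 clusters that hold 18953 CD4 T-like cells, as a description with no test, since correlated genes shaped the clusters. In the one led by Klrb1f (236 cells, median 11444 UMIs), 99.2% of cells scored as likely doublets, so its S1pr1 (113 CPM) beside Cd69 (999 CPM) is not read as one kind of cell. The cluster led by Rflnb and Cnp, with 3776 cells, had the most S1pr1 (306 ± 11 CPM) and Il7r (745 ± 244 CPM), with Klf2 at 899 ± 110 CPM and Cd69 at 125 ± 16 CPM (SD, n = 4). It made up 51.2% ± 2.9 of the zero class. The Memory or effector T-like cluster led by Ccl5, Ahnak and S100a6 came close to it, with S1pr1 at 302 ± 22 CPM and Il7r at 717 ± 203 CPM. At the other end, both Early activated T-like clusters had the most Cd69, at 4601 ± 131 CPM (led by Egr3 and Cxcl10) and 3570 ± 112 CPM (led by Nr4a2 and Nfkbid). S1pr1 was at 10.6 ± 6.1 and 1.97 ± 0.87 CPM there, and Ccr7 at 90.0 ± 13 and 116 ± 19 CPM.

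Ccr7 peaked in neither kind of cluster. Its highest level, 1019 ± 105 CPM, was in a cluster of 456 cells led by Resf1, Trat1 and Akap13 that kept Klf2 (729 ± 44 CPM) and part of its S1pr1 (106 ± 9.9 CPM) but had Il7r at only 57.0 ± 14 CPM (SD, n = 4). In that cluster Irf4 was at 363 ± 58 CPM and Myc at 26.6 ± 10 CPM. Regulatory T-like cells, named by Foxp3 and Ikzf2, split in 2. The cluster led by Gpr83 had S1pr1 at 212 ± 30 CPM, Klf2 at 846 ± 42 CPM and Cd69 at 119 ± 13 CPM, and the one led by Foxp3 and Ikzf2 had 26.8 ± 7.1, 149 ± 65.5 and 912 ± 246 CPM. Il7r averaged 43.0 ± 33 and 45.3 ± 4.9 CPM in them, between 8 CD4 T-like clusters with lower means (2.79 to 18.0 CPM) and 8 with higher means (47.1 to 745 CPM). In the Gpr83-led cluster it ran from 0 to 79.1 CPM over the libraries. Innate-like T-like cells had Zbtb16 and Il4 among their leading genes. They were low in S1pr1 (11.7 ± 7.9 CPM, 10 UMIs) and Klf2 (91.4 ± 24 CPM) even with no Myc or Irf4 UMI after thinning.

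**Figure D3:**
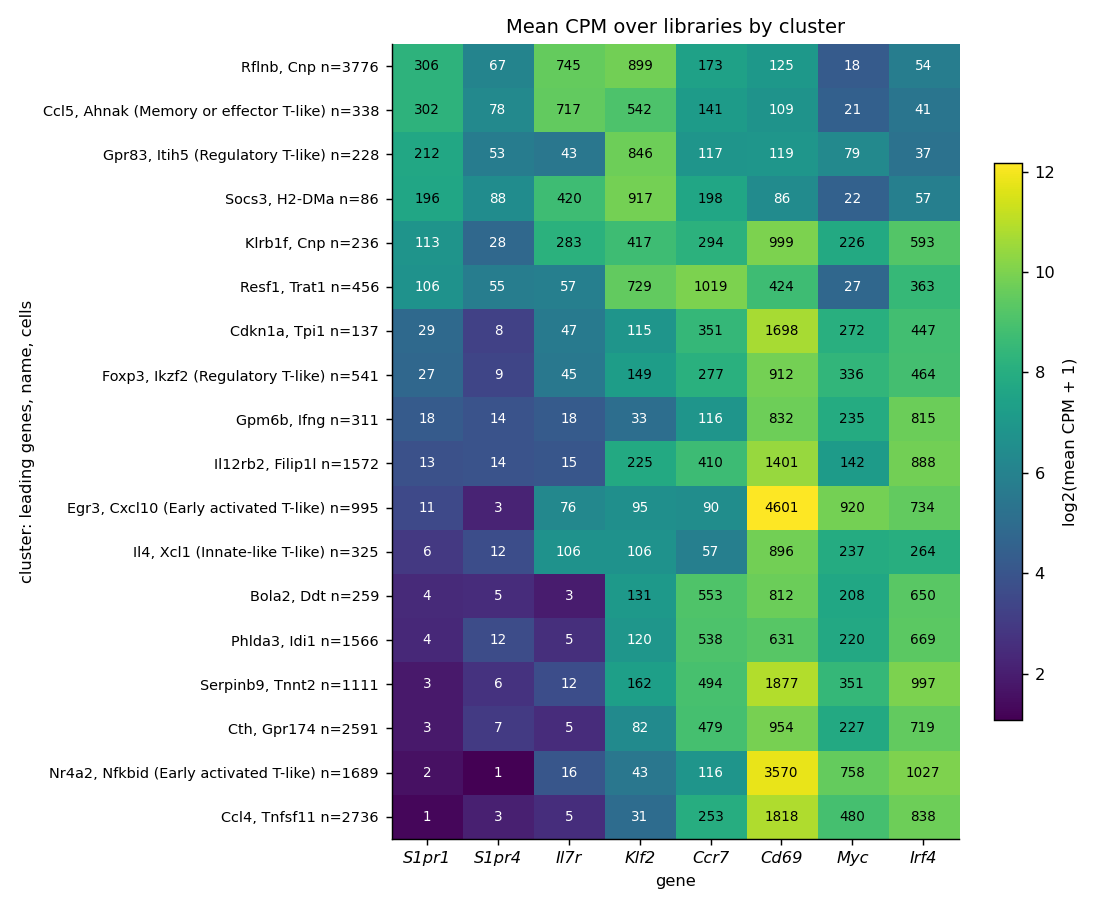
Mean CPM over libraries (printed in each cell, colour on a log2 scale) of the 6 genes, Myc and Irf4 in 18 clusters of CD4 T-like cells, ordered by S1pr1. The 4 clusters with most S1pr1 have Klf2 at 542 CPM or more and Cd69 at 125 CPM or less, the Klrb1f-led cluster consists nearly all of likely doublets, and Ccr7 is highest in the cluster led by Resf1 (1019 CPM) and lowest in the Innate-like T-like cluster (56.9 CPM).

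The genes most like each member across clusters were named by a fixed rule, Pearson's r of log2(CPM + 1) centred within each library, over 15 clusters by 4 libraries (60 points that share libraries and depth) among 5209 genes. For S1pr1 they were Stk38 (r = 0.93), Arhgap45, Crebrf, Crlf3 and Dgka (0.89). Klf2 was most like Klf3 (r = 0.85), Ms4a4b, Ablim1, Pik3cd and Ms4a6b (0.81). Cd69 was most like Kdm6b (r = 0.96), Nfkbid, Tagap, Rheb and Nr4a3 (0.92). Among the members, S1pr1 had r = 0.80 with Il7r, 0.77 with Klf2, -0.75 with Cd69 and -0.08 with Ccr7. S1pr4 lay under the minimum of 20 CPM and was not compared.

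Other genes of the recirculation pathway also differed along activation. Of 56 listed genes 48 were tested, of which 34 were lower, 12 higher and 2 (Gna13 and Sgpl1) not called in edgeR, where 39.7% of all genes tested were lower and 36.1% higher. The list's median was -0.75 against -0.05 for all genes tested. Among homing and adhesion genes, Itgb7 was at -3.13 and Itga4 at -2.97, encoding the subunits of the gut-homing integrin; Cd44 (0.74), Itgb2 (0.69) and Itgal (0.52) were higher. Itgb2 and Itgal encode the subunits of LFA-1. Of transcription factors and signalling genes, Klf3 was at -2.58, Rac2 at -2.06 and Gnai2, an inhibitory G protein subunit used by these receptors, at -1.74. Regulators of G protein signalling went both ways, with Rgs1 at -2.07 and Rgs16 at 1.49. In the IL-7 and cytokine branch, Socs3 was at -3.55, and Cish (1.17), Stat5a (0.67) and Il2rg (0.40) were higher. Rap1a, a small GTPase of integrin activation, was at 0.54. Each value in this paragraph is a log2 difference of the high over the zero class, called at an edgeR adjusted p under 0.05.

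Between genotype labels, none of the 6 members was called over all kept cells. In the edgeR fit with sex as a term, 1.21% of 12855 genes were called (155), and 1029 had an unadjusted p under 0.05. Il7r was the 1 member under that unadjusted level. DESeq2, which called 47 genes, called no member. Sex pairs the libraries, and without this block 7 genes and no member were called. The 95% interval of the log2 difference, labelled knockout over labelled wild type, was -0.16 to 0.19 for S1pr1, -0.24 to 0.17 for S1pr4 and -0.24 to 0.20 for Ccr7. It was -0.0096 to 0.38 for Klf2, -0.31 to 0.012 for Cd69 and -0.61 to -0.12 for Il7r, not adjusted for the number of genes.

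S1pr1 stood at 49.3, 50.5, 53.4 and 51.3 TMM-scaled CPM (log2 difference 0.01 ± 0.08, adjusted p = 0.99 in edgeR). The 4 libraries lie within a narrow band, with no order by label. Cd69 stood at 1278, 1434, 1367 and 1500.3 CPM, with both libraries labelled wild type above both labelled knockout, and the difference of -0.15 ± 0.08 was not called (edgeR adjusted p = 0.67). Klf2 stood at 230.3, 186, 245 and 234 CPM and differed by 0.19 ± 0.09 (edgeR adjusted p = 0.65); its groups overlap. With no sex term, the Klf2 difference was 0.019 without the female library labelled wild type and 0.36 without the male one, and neither was called. Ccr7 stood at 377, 329, 289 and 339 CPM, with the knockout-labelled libraries at the 2 extremes (-0.02 ± 0.10, edgeR adjusted p = 0.99). S1pr4 stood at 17.8, 16.5, 17.1 and 18.8 CPM (-0.03 ± 0.10, edgeR adjusted p = 0.99).

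Il7r was the member with the largest difference, at 92.7, 99.5, 115 and 176 TMM-scaled CPM. The male library labelled wild type was above the other 3, and the log2 difference of -0.36 ± 0.11 was not called over all cells (edgeR adjusted p = 0.23), but was in CD4 T-like cells alone (-0.36, adjusted p = 0.029). Without that library and the sex term together the difference was 0.06, and without the sex term alone it was -0.41. Il7r also differed by the sex term, 0.57 ± 0.11 higher in male libraries (edgeR adjusted p = 0.023, with 1.31% of genes called for this term). Sex is also the replicate number here, so these cannot be told apart. From female to male, Il7r went from 92.7 to 115 CPM under the knockout label and from 99.5 to 176 CPM under the wild-type label. Of the pathway list, 50 genes were tested between labels and none was called in edgeR, with 10 at an unadjusted p under 0.05 (1029 of all 12855 genes were) and a median of 0.05 against 0.00 for all genes. Without the female library labelled wild type, and with no sex term, 4 were called, all higher in the libraries labelled knockout, among 117 of 13403 genes called in that fit, 87 of them higher. The zero and high classes made up similar shares of cells under both labels: the high class held 18.2% ± 1.7 of cells labelled knockout and 18.0% ± 1.8 of cells labelled wild type (SD, n = 2; two-sided exact permutation p = 0.67, where 2 against 2 cannot go below 0.33). Within sexes the label difference in this share was 0.15 points in females and 0.21 points in males. By sex, both female libraries had more high-class cells (19.4% and 19.2%) than both male libraries (16.9% and 16.7%).

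**Figure D4:**
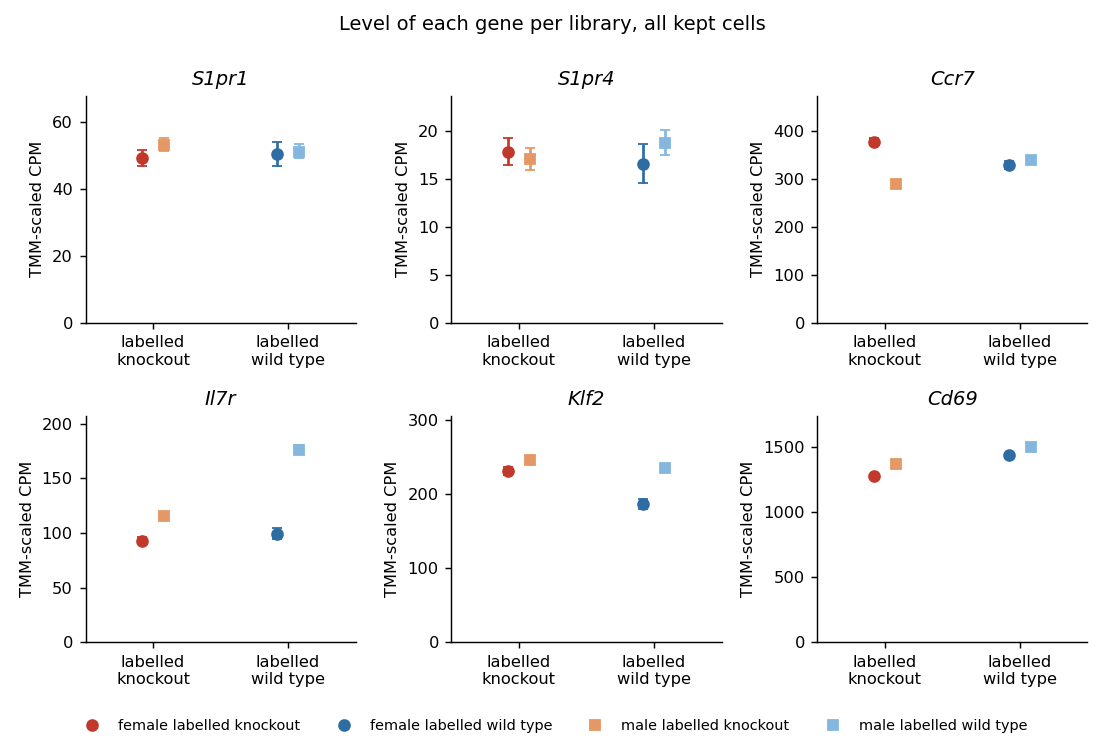
TMM-scaled CPM of each gene (vertical axes, from 0) in each library over all kept cells, by genotype label; bars are exact 95% Poisson intervals, which cover counting error only. S1pr1 and S1pr4 lie within a narrow band, Il7r is highest in the male library labelled wild type (176 CPM), and Ccr7 differs more between the 2 libraries labelled knockout than between labels.

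The fall of Klf2 along activation was shallower in the libraries labelled knockout. High-class cells kept 19.5% and 18.9% of the zero-class Klf2 level in the female and male libraries labelled knockout, and 13.3% and 13.1% in those labelled wild type. The label term of this difference was 0.53 ± 0.08 on the log2 scale (edgeR adjusted p = 0.0064). It was 1 of 14 genes called (0.126% of 11104; 698 had an unadjusted p under 0.05), and the only one in the higher direction (0.00901% of genes, against 0.117% lower). DESeq2 called 6 genes, 1 of them a member. Within the high class alone, Klf2 was 0.61 higher in the libraries labelled knockout (edgeR adjusted p = 0.00028), and in the zero class alone it was 0.11 higher and not called. The call on the label term was lost with likely doublets removed (0.48, adjusted p = 0.0705), with the high class at 6 or more UMIs (0.72, adjusted p = 0.24), and with classes from Myc alone (0.44, adjusted p = 0.056) or Irf4 alone (0.32, adjusted p = 0.695). In the high class alone with likely doublets removed, the difference was 0.56 (edgeR adjusted p = 0.26). Cells scored as likely doublets made up 5.68% and 4.96% of the high class in the libraries labelled knockout and 0.860% and 4.06% in those labelled wild type, female first, and their part in the result was tested only by that removal.

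Il7r and S1pr1 stood in the same order at this class limit. Il7r kept 6.94% and 6.27% of its zero-class level in the libraries labelled knockout and 3.64% and 4.19% in those labelled wild type (label term 0.67 ± 0.14, edgeR adjusted p = 0.059), and this term passed without TMM scaling (0.69, adjusted p = 0.028) and in CD4 T-like cells alone (0.67, adjusted p = 0.040). S1pr1 kept 3.52% and 3.50% against 2.31% and 2.35% (label term 0.57 ± 0.26, edgeR adjusted p = 0.77), on 11 to 46 UMIs per library. With likely doublets removed the S1pr1 term was 0.18, and with the high class at 6 or more UMIs it turned to -0.68; neither was called. For S1pr4, Ccr7 and Cd69 the label terms were 0.15, -0.01 and -0.02, and none was called. Median depth in the high class was lower in the libraries labelled knockout (5369.5 and 7040 UMIs) than in those labelled wild type (8938 and 10042.5), and its part in these differences was not tested beyond the fit on thinned counts, where Klf2 was at 0.66 (adjusted p = 0.17).

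**Figure D5:**
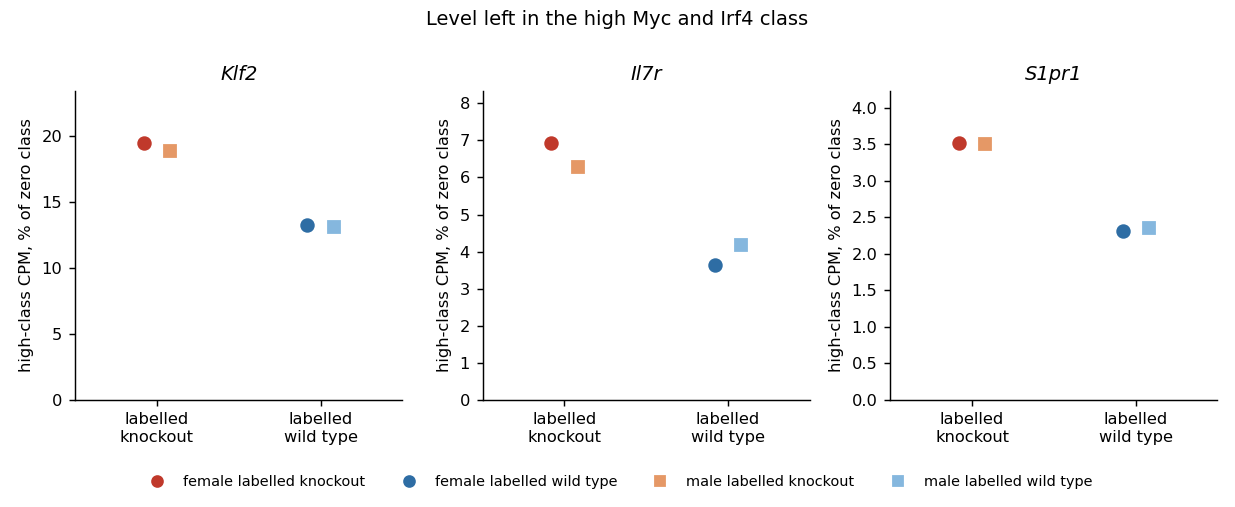
Level left in the high class as a percent of the zero-class level in the same library (vertical axes, from 0) for Klf2, Il7r and S1pr1, by genotype label; each point is 1 library. For all 3 genes both libraries labelled knockout lie above both labelled wild type, and only Klf2 passed the edgeR test of the label term.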

How the data were processed

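The authors deposited raw UMI counts per gene and barcode for each of the 4 libraries, with all barcodes and no normalization. Libraries were made with 3′ droplet chemistry (v3.1), per the labels' protocols. Counts were made against mm10 with Cell Ranger 6.0.2, per the submitters' processing notes; the file headers name version 4 of the matrix software. Use of strand is not given in the sources used here.

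Cells were kept as the report states. UMIs were summed per library, or per library and activation class, and tested with edgeR 4.0.16 in R 4.3.3 (TMM, filterByExpr, quasi-likelihood, Benjamini-Hochberg over all genes tested; called at an adjusted p under 0.05), with sex as a term for genotype label and library as a block for activation. Because each sex holds 1 library of each label, sex is also the replicate number, so this fit is the paired one. SE are from those fits, and 95% intervals of log2 differences use the SE and the degrees of freedom of the fit. DESeq2 1.42.0 was an alternative. The edgeR steps were tested on simulated data, whose settings and outcome are not reported here. CPM are UMIs scaled to a total of 1000000; those between labels carry TMM factors. Thinning drew 2000 UMIs per cell.

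Clusters came from log counts scaled within each library (2000 variable genes, 30 principal components, 15 neighbours from scikit-learn 1.9.0) and leidenalg 0.10.2 at resolution 1, without the members, Myc, Irf4, Irf5, sex-specific, mitochondrial, ribosomal and receptor variable genes. A cluster was named from at least 3 listed markers among its 30 leading genes. CD4 T-like cells are all clusters but 1 of mixed B, erythroid and cycling genes and 1 with gamma-delta T genes. Likely doublets were kept in the main values; their removal, by scrublet score (scanpy 1.11.5) at 0.8% per 1000 cells, was an alternative. The erythroid gate took cells of the mixed cluster with at least 2 erythroid genes other than haemoglobins and no UMIs of Cd79a, Cd79b or Ms4a1. These cells were pooled over the libraries, so they give no background for a single library.

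Named genes are all 6 members, Myc, Irf4 and Irf5, up to 8 called pathway genes in each direction with a mean of at least 20 CPM, and the 5 genes most like S1pr1, Klf2 and Cd69. Genes that these rules name but the text omits are not reported here. The members and lists were chosen with earlier results of these data known. The alternatives tried, and those chosen after seeing the data, are in the closing section. Intervals of shares and levels are exact and cover counting error only. Gene positions are from GENCODE M21 and promoters from RefSeq, both GRCm38.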

Additional observations from a re-analysis of the deposited data

Results flagged for a closer look

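Klf2 is listed because its fall along activation differed between the genotype labels by the edgeR test of that difference: the label term was 0.53 on the log2 scale, shallower in the libraries labelled knockout.

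S1pr1, S1pr4 and Ccr7 are listed because the difference between labels had opposite signs in the 2 sexes, each on 1 library against 1. The log2 difference in males minus that in females was 0.091 for S1pr1 (-0.03 in females, 0.06 in males), -0.25 for S1pr4 (0.11 and -0.14) and -0.43 for Ccr7 (0.20 and -0.23). These differences between the sexes were not tested.

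All 6 genes are listed for signal in droplets of under 200 UMIs, which entered no test. These held 1069 UMIs of S1pr1, 450 of S1pr4, 7009 of Ccr7, 1998 of Il7r, 4868 of Klf2 and 20437 of Cd69 over the 4 libraries.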

How the results depend on the processing

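Among the recomputed values, 326 kept their direction and their side of the threshold, 41 changed sign, 10 gained a call, 11 lost one and 42 others moved. The direction and call of S1pr1, S1pr4, Il7r, Klf2 and Cd69 along activation held in every alternative fitted; per raw UMI per cell the log2 ratios were -2.45 for S1pr4, 2.44 for Cd69 and 0.29 for Ccr7. The cause of the changes given here was not tested. Counting depth limits S1pr1 and S1pr4 most in the high class.

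Ccr7 along activation was -0.058 without TMM, 0.083 without the filter, 0.10 without the library block, -0.56 with classes from Myc alone, -0.29 with the high class at 6 or more, 0.033 in CD4 T-like cells and -0.47 with classes from Cd69. Leaving out 1 library gave 0.071 to 0.109.

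Between labels, 155 genes became 47 with DESeq2, 20 without the filter, 7 without the sex term, 256 in CD4 T-like cells, 27 at equal cell number and depth, 50 in the zero class, 78 in the high class, 254 at a minimum of 1000 UMIs, and 10 in the high class with doublets removed. Leaving out 1 library, with no sex term, gave 43 genes without the male library labelled wild type, 47 without the female and 53 without the male library labelled knockout, 117 without the female library labelled wild type, and 0 of the pathway list, or 4, all higher, without the female library labelled wild type. Uncalled member differences changed sign without TMM (S1pr4 0.037, Ccr7 0.047), at equal depth (S1pr1 -0.21, Ccr7 0.064), in the zero class (S1pr1 -0.041), in the high class (S1pr4 0.038, Il7r 0.21), there with doublets removed (S1pr4 0.080, Il7r 0.26), and in cells with 1 or more Myc and Irf4 UMIs (S1pr4 0.074). Calls were gained for Il7r in CD4 T-like cells (-0.36) and Klf2 in the high class (0.61). Without the male library labelled knockout, S1pr1 was -0.046, S1pr4 0.0016 and Ccr7 0.18; without the male library labelled wild type, S1pr4 was 0.075, Ccr7 0.017 and Il7r 0.064. Over the 4 libraries left out in turn, S1pr1 reached 0.069, S1pr4 -0.11, Ccr7 -0.21 and Il7r -0.76, and Klf2 ran from 0.019 to 0.36.

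For the label term of the activation difference, 14 genes became 24 without TMM, 66 without the filter, 7 with doublets removed, 54 and 4 with the high class at 3 and at 6 or more, 3 on thinned counts, 8 with Myc alone, 8 with Irf4 alone and 6 with DESeq2. Leaving out 1 library gave 39 (without the male library labelled knockout) to 113 (without the female library labelled wild type). Klf2 lost its call with doublets removed (0.48), at 6 or more (0.72), on thinned counts (0.66), with Myc alone (0.44) and with Irf4 alone (0.32). Il7r gained one without TMM (0.69), without the filter (0.68), in CD4 T-like cells (0.67), at 3 or more (0.73) and with Myc alone (0.68), with 0.60 to 0.86 when 1 library was left out. Ccr7 changed sign without TMM (0.00092), without the filter (0.0093), in CD4 T-like cells (0.021), with doublets removed (0.014), at 3 or more (0.028), at 6 or more (0.26) and on thinned counts (0.11), and ran from -0.015 to 0.015 over libraries left out. S1pr1 was -0.68 and S1pr4 -0.010 at 6 or more. Cd69 was 0.016 with doublets removed and 0.051 on thinned counts, and ran from -0.15 to 0.10 over libraries left out. The alternatives with doublets removed, other class limits, thinned counts or a single class gene for this term, and the last 2 cell sets between labels, were chosen after seeing the data.

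The difference in the high-class share was -1.33 points with Myc alone and -1.07 to 1.43 over libraries left out; that in the zero-class share was -0.63 points with Irf4 alone and -0.25 to 1.62. The sex term is the replicate block of the fit between labels, since each sex holds 1 library of each label; without the block 7 genes were called, no member among them, and no member changed its direction or call.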
